A study of Mus musculus with 4 samples.

Results

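Genes grouped as those of neurons of the midbrain roof, thalamus or forebrain were followed through pulldowns meant for the cerebellar nuclei. Of 10 genes, 8 were at least 5.89 times higher in replicate 1 than in any other library. The genes are Tcf7l2, Tfap2d, Pou4f1, Barhl2, Otx2, Mef2c, Nrgn, Syndig1l, Coch and Ankrd63. They were chosen by their read counts in these libraries, as regional neuron genes most of which stood far higher in replicate 1 than elsewhere, and all 10 were found by symbol among 32531 gene names. Their difference between replicate 1 and the rest is therefore what chose them, and is described here without a test. The description of the group as far higher in replicate 1 holds for 8 of them. Barhl2 was highest in replicate 1 only by a narrow margin, and Otx2 was highest in replicate 3.

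The samples form 1 group of 4 immunopurified libraries from the deep cerebellar nuclei of adult mice of the Slc17a6-TRAP line JX883, which carry the transgene Slc17a6-EGFP/Rpl10a and received no treatment. Each library pooled 3 mice. Nothing in the labels says whether the pools shared mice or were dissected on the same occasion, and no input RNA or second line was used here. The library numbers in the titles are consecutive for replicates 1 to 3 and stand apart for replicate 4. What those numbers mean is not stated. In translating ribosome affinity purification (TRAP), cells that express an EGFP-tagged ribosomal protein yield their ribosome-bound RNA to beads that carry antibodies against EGFP. Slc17a6 encodes a vesicular glutamate transporter that glutamatergic neurons of the thalamus, midbrain and hindbrain use as well as those of the cerebellar nuclei.

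The brain's regions are laid out by transcription factors. Otx2 marks the forebrain and midbrain as far as the boundary with the hindbrain, behind which the cerebellum forms. Tfap2d, Pou4f1, Barhl2 and Tcf7l2 then mark subsets of neurons in the tectum, pretectum, thalamus or habenula. Mef2c and the small postsynaptic protein gene Nrgn are best known from neurons of the forebrain. Replicate 1 had the fewest reads, 14008282 in all counting classes, against 17334066, 18543119 and 18408783 in replicates 2 to 4. Counts on genes differed less, with 9621762 in replicate 1 and between 10306407 and 10988373 in the others. The level of 3 counts, the most that a gene with no count is likely to have, was 0.312 CPM (counts per 1000000 counts on genes) in replicate 1 and between 0.273 and 0.291 CPM in the rest. This limit and all intervals cover counting error only, as the labels name no molecular identifiers. Slc17a6 itself stood at 2237 CPM in replicate 1, against 2011, 2014 and 2309 CPM in replicates 2 to 4. The summed level of 11 glutamatergic cerebellar nuclear neuron genes was 3588 CPM in replicate 1 and between 3089 and 3852 CPM in the others, and all 11 reached 1 CPM in every library. Replicate 1 differed in make-up as well: reads with no feature were 14.1% of all counted reads there, against 19.5, 21.1 and 19.3% in replicates 2 to 4. The part of these features in the results was not tested.

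The genes lie on 8 chromosomes of mm10. Only Otx2 and Pou4f1 on chromosome 14, and Coch and Syndig1l on chromosome 12, share one, and 55787857 and 33071506 bases lie between the members of those pairs. RefSeq promoter windows on GRCm38.p6, from 250 bases before to 50 bases after the most upstream listed start, were available for 9 of the 10, and the window of Syndig1l is not shown. The Otx2 window lies inside the GENCODE gene, whose start is farther upstream. The windows of the 4 genes with the largest pooled ratio in replicate 1 are printed first, then those of Barhl2 and Otx2, which had the smallest, so that both kinds can be compared. Capitals mark matches to the motifs searched.
Ankrd63 (chr2:118703914-118704213, minus strand): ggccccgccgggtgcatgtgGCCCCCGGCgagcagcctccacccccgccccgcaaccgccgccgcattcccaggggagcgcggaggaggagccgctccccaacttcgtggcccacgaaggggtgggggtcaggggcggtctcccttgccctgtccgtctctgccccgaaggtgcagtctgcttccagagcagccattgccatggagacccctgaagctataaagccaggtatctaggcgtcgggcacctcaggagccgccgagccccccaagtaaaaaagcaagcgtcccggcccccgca
Tfap2d (chr1:19102772-19103071, plus strand): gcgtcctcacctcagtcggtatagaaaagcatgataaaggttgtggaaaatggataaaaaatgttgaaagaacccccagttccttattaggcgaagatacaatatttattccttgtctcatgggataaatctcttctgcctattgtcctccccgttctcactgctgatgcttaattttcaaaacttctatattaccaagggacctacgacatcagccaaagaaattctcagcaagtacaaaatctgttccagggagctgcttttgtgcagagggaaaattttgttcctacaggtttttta
Tcf7l2 (chr19:55741560-55741859, plus strand): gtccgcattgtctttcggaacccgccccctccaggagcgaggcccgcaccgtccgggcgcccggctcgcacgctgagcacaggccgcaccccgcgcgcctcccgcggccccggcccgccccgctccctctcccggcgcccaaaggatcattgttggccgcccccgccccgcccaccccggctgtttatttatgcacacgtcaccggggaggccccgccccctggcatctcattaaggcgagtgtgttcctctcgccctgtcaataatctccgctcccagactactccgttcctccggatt
Pou4f1 (chr14:104467950-104468249, minus strand): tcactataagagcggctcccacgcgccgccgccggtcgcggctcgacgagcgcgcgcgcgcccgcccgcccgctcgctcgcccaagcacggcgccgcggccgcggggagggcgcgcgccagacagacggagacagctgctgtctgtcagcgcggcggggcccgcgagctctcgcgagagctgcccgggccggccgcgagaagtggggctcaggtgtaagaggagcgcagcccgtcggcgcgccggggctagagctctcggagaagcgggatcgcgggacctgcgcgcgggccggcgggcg
Barhl2 (chr5:106458117-106458416, minus strand): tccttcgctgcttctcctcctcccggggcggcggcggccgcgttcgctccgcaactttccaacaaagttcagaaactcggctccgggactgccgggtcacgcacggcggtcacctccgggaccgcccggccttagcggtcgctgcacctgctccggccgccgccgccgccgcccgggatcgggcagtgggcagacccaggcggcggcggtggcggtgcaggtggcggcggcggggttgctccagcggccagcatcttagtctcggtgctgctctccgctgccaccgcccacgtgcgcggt
Otx2 (chr14:48667595-48667894, minus strand): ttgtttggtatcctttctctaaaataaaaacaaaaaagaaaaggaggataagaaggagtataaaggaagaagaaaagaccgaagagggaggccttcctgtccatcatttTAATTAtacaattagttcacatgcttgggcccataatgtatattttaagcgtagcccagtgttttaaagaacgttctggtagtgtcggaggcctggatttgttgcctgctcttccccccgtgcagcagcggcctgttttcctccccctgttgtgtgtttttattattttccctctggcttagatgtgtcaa

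These windows were not alike in base composition. GC content was 69.7% for Ankrd63, 39.7% for Tfap2d, 70.0% for Tcf7l2 and 78.3% for Pou4f1, and 73.7% for Barhl2 and 41.7% for Otx2, around a median of 52.7% over the 27025 genes with a window. Mef2c, at 35.7%, was the lowest of the 9, and 6 of the 9 were above that median. The search covered both strands for a homeodomain core (TAATTA), an OTX core (TAATCC), a TCF/LEF core (ATCAAAG) and an AP-2 core (GCCNNNGGC). The last allows any base at N, and no window held more than 1 match. TAATTA was found in the Otx2 window, 141 bases before the start, and in 5.32% of all windows. GCCNNNGGC was found in the Ankrd63 window, 230 bases before the start, and in 16.5% of all windows. TAATCC and ATCAAAG, held by 7.15 and 3.76% of all windows, matched in none of the 9. No motif was therefore shared by the 4 genes of largest ratio in these windows.

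Among the transcription factor genes, Tcf7l2, Tfap2d and Pou4f1 stood far apart in replicate 1. Tcf7l2, whose protein is a nuclear partner of beta-catenin in Wnt signalling and a selector of thalamic neurons, stood at 2486 CPM in replicate 1 and at 22.8, 42.0 and 8.55 CPM in replicates 2, 3 and 4. Its levels did not overlap, and its replicate 1 level was 59.2 times that of the next library. By abundance, Tcf7l2 ranked 15 among all gene names in replicate 1 and 6232, 4377 and 8583 in replicates 2 to 4. Counts were 23921 in replicate 1 and 235, 438 and 94 in the rest. The mean log2 ratio of replicate 1 to the others, on the log2(CPM + 0.5) scale, was 6.90 for Tcf7l2 and 6.30 without replicate 4, its lowest library. The gene (ENSMUSG00000024985.19) lies on the plus strand of chromosome 19 at 55741820 to 55933654.

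Tfap2d encodes AP-2 delta, a factor that mice need to form the posterior tectum. It had 1408 counts in replicate 1, against 11, 2 and 0 in replicates 2, 3 and 4. These are 146 CPM in replicate 1, against 1.07, 0.192 and 0 CPM, so that almost all of its signal came from a single library. Replicate 1 was 357 times the pooled level of the other 3, with an exact 95% counting interval from 208 to 673. The gene lies on the plus strand of chromosome 1 at 19103022 to 19166346. Its exons overlap those of Gm15825 on the opposite strand, and reads of the overlap cannot be told apart if strand was ignored.

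Pou4f1, which encodes the POU homeodomain factor Brn3a of sensory ganglia, medial habenula, red nucleus and tectum, had 186 counts in replicate 1, against 5, 5 and 2 in replicates 2 to 4. Its level was 19.3 CPM in replicate 1 and 0.485, 0.479 and 0.182 CPM in the other libraries. It exceeded 1 CPM in replicate 1 only, and the pooled ratio was 51.1 with a counting interval from 28.6 to 101. The gene lies on the minus strand of chromosome 14 at 104461676 to 104467999.

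Barhl2 and Otx2 differed from these. Barhl2, a BarH-type homeodomain gene of diencephalic and other dorsal neurons, stood at 27.96 CPM in replicate 1, against 14.7, 22.0 and 7.10 CPM in replicates 2, 3 and 4. Replicates 1 and 3 lay close together, and the spread within replicates 2 to 4, which was 3.10-fold, exceeded the 1.27-fold step from replicate 3 to replicate 1. Otx2 stood at 4.88 CPM in replicate 1, against 4.75, 5.65 and 0.455 CPM in replicates 2 to 4. Replicates 1, 2 and 3 were at similar levels and replicate 4 was low, with 47 counts in replicate 1, against 49, 59 and 5 in replicates 2, 3 and 4. The mean log2 ratio of replicate 1 to the others for Otx2, 0.78 on the log2(CPM + 0.5) scale, turned to -0.08 without replicate 4. Barhl2 lies on chromosome 5 at 106452523 to 106458166 and Otx2 on chromosome 14 at 48657677 to 48673819, both on the minus strand, and exons of Otx2 overlap those of Otx2os1 on the opposite strand and Gm49154 on the same strand.

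**Figure D1:**
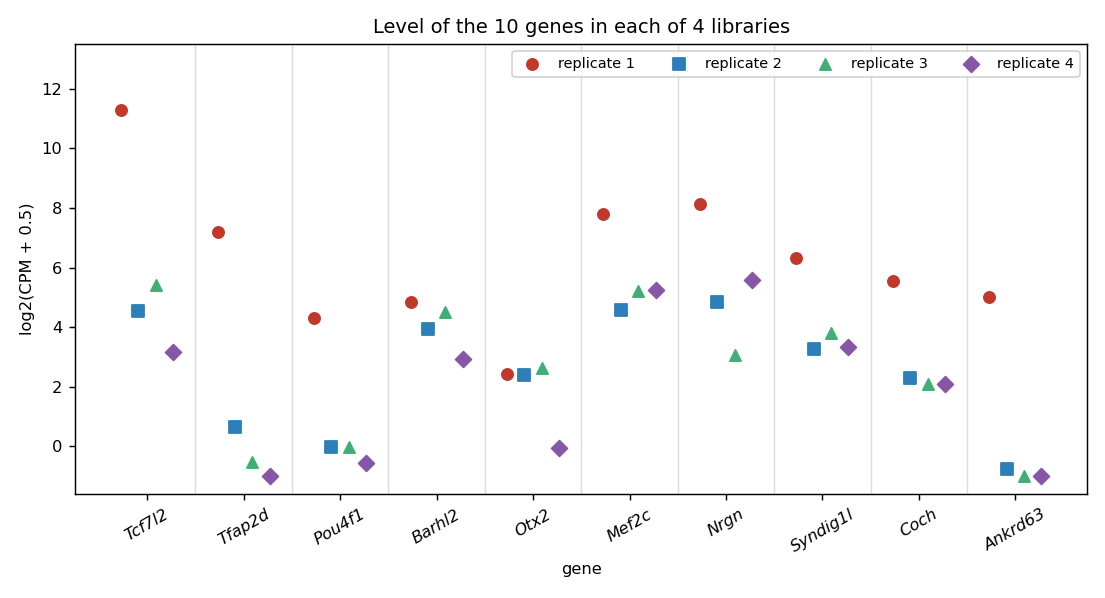
Points show log2(CPM + 0.5) of each gene in replicates 1 to 4, with 1 point a library. Replicate 1 lies apart from the other 3 for 8 genes, near replicate 3 for Barhl2 (27.96 CPM in replicate 1, 22.0 CPM in replicate 3), and within the range of the others for Otx2.

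Mef2c encodes a MADS-box factor that limits synapse number in forebrain neurons. It stood at 221 CPM in replicate 1, against 23.5, 36.6 and 37.0 CPM in replicates 2, 3 and 4. The other 3 libraries were close to each other, at 32.4 ± 7.71 CPM (SD, n = 3), and the lowest and highest of them differed 1.58-fold. It lies on the plus strand of chromosome 13 at 83504034 to 83667080.

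Nrgn encodes neurogranin, which binds calmodulin at the postsynapse. Its level was 280 CPM in replicate 1, against 28.4, 7.86 and 47.0 CPM in replicates 2, 3 and 4. The groups did not overlap, yet the other libraries also varied 5.98-fold among themselves, as much as the 5.97-fold step from the next highest library to replicate 1. Its mean log2 ratio, 3.64 on the log2(CPM + 0.5) scale, was 2.92 without replicate 3. Nrgn lies on the minus strand of chromosome 9 at 37544492 to 37552904.

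Syndig1l, also called capucin and known from the striatum, encodes a membrane protein of the SynDIG family. It stood at 79.0 CPM in replicate 1, against 9.02, 13.4 and 9.65 CPM in replicates 2 to 4, or 10.7 ± 2.38 CPM (SD, n = 3). Coch, the gene of cochlin, a secreted matrix protein abundant in the inner ear, stood at 46.2 CPM in replicate 1, against 4.37, 3.74 and 3.73 CPM. For Coch the other libraries were the closest of any of the 10 genes on the log2(CPM + 0.5) scale, at 3.94 ± 0.365 CPM (SD, n = 3), with a 1.17-fold range. Syndig1l and Coch lie on chromosome 12, at 84677277 to 84698831 on the minus strand and at 51593341 to 51605771 on the plus strand. Exons of Syndig1l overlap those of Gm48573 on the opposite strand.

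Ankrd63, which encodes an ankyrin repeat protein, was close to all or none. It had 306 counts in replicate 1, 31.8 CPM, against 1, 0 and 0 counts in replicates 2, 3 and 4. The pooled ratio was 1009, with a counting interval from 180 to 39988, since only 1 count supports the lower level. It lies on the minus strand of chromosome 2 at 118699103 to 118703963.

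**Figure D2:**
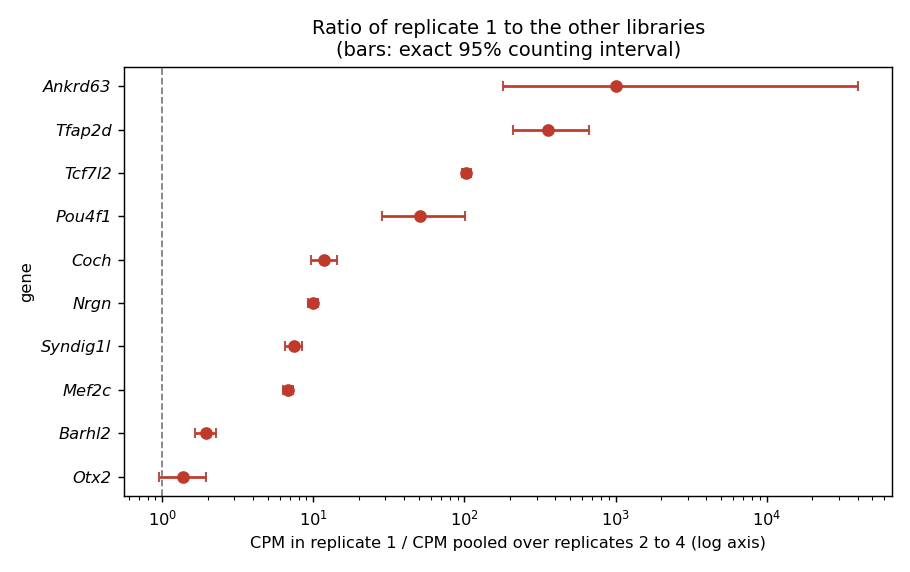
Each point is the CPM of a gene in replicate 1 divided by its CPM pooled over replicates 2 to 4, on a log axis, and bars are exact 95% counting intervals, which do not include variation between libraries. Ratios run from 1009 for Ankrd63 down to 1.37 for Otx2, whose interval, from 0.955 to 1.94, includes 1.

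By that ratio, Ankrd63 and Tfap2d stood at 1009 and 357, which rest on 1 and 13 pooled counts in the other libraries, then Tcf7l2 at 103 and Pou4f1 at 51.1. The order depended on the scale: as a mean log2 ratio on the log2(CPM + 0.5) scale, Tfap2d stood at 7.49, Tcf7l2 at 6.90, Ankrd63 at 5.93 and Pou4f1 at 4.51, and Ankrd63 ranged from 4.06 to 7.99 over the alternatives tried. Coch at 11.7, Nrgn at 9.99, Syndig1l at 7.39 and Mef2c at 6.81 made up a second set, in which all 4 genes kept at least 39 counts in every library. Barhl2 followed at 1.93 and Otx2 at 1.37. The counting intervals of Tfap2d (208 to 673) and Ankrd63 (180 to 39988) overlapped, as did those of Tcf7l2 (95.7 to 111) and Pou4f1 (28.6 to 101), of Coch (9.61 to 14.4) and Nrgn (9.25 to 10.8), of Syndig1l (6.50 to 8.43) and Mef2c (6.32 to 7.34), and of Barhl2 (1.66 to 2.25) and Otx2 (0.955 to 1.94). Because these libraries are bulk samples, fewer cells of a type and less RNA per cell cannot be told apart in any of these ratios.

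The summed level of the 10 genes was 3343 CPM in replicate 1, against 109, 132 and 114 CPM in replicates 2, 3 and 4. Tcf7l2 made up most of it, and without Tcf7l2 the sums were 857 CPM in replicate 1 and 86.4, 90.0 and 105 CPM. Replicates 2 to 4 kept no common order. Replicate 2 was highest of these 3 for Tfap2d, Pou4f1, Coch and Ankrd63, replicate 3 for Tcf7l2, Barhl2, Otx2 and Syndig1l, and replicate 4 for Mef2c and Nrgn. All 10 genes had a count in replicate 1 and in replicate 2, 9 had one in replicate 3 and 8 in replicate 4. Tcf7l2, Barhl2, Mef2c, Nrgn, Syndig1l and Coch, 6 of the 10, reached 1 CPM in every library.

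Set against all genes, 9 of the 10 were highest in replicate 1, as were 33.5% of the 15083 genes tested. Otx2 was the 1 gene highest in replicate 3, as were 25.4% of genes tested, and none was highest in replicate 2 or 4, as were 17.2 and 23.9%. At least 10 CPM in replicate 1 together with a 4-fold step over each other library was met by 8 of the 10 and by 0.358% of tested genes, 54 in number. The same criterion was met in replicate 2 by 0.0464%, in replicate 3 by 0.464% and in replicate 4 by 0.292% of genes, and by none of the 10. Each library was also set against the other 3 by edgeR's quasi-likelihood test with Benjamini-Hochberg adjustment over all genes and a threshold of 0.05. In the comparison of replicate 1, 3 genes (0.0199%) were called higher, all of them among the 10 (Tcf7l2, Tfap2d and Ankrd63), and 0 lower. Tfap2d was not among the 7 members that DESeq2 called. None of the 10 was called in the other comparisons, which gave 0 genes for replicate 2, 0 for replicate 3, and 6 higher (0.0398%) and 1 lower (0.00663%) for replicate 4, against 78, 1058 and 2222 genes at an unadjusted p under 0.05. In the comparison of replicate 1 there were 497 genes (3.30%) at that unadjusted level, 8 of them among the 10 and higher, and 1098 without replicate 4. Since this contrast chose the genes, these counts are a description. All 10 passed the filter on low counts, but Pou4f1 and Ankrd63, under 1 CPM in all of replicates 2 to 4, passed it through replicate 1 alone. Tfap2d, with 13 counts in replicates 2 to 4 together, also reached the filter's minimum total count only with replicate 1. The count called higher was 12 with DESeq2 (and 14 lower), and 1 (Tcf7l2) where 10 or more counts were required in all 4 libraries. It was 7, 14 and 21 without replicate 2, 3 or 4, so that any of these libraries moved it by over 1.5 times.

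Relatives of the genes, compared per kb of union exon (CPM per kb), were read to see how the members stood within their families. In the TCF/LEF family, Tcf7l2 was the highest gene in every library, at 283 CPM per kb in replicate 1 and at 2.60, 4.78 and 0.975 CPM per kb in replicates 2 to 4. Lef1, which shares its DNA-binding domain, was at 0.698 CPM per kb in replicate 1, against 0.0662, 1.47 and 0.145 CPM per kb, and Tcf7 and Tcf7l1 were under 1 CPM per kb in each library. The share of Tcf7l2 in the family's summed level was 99.7% in replicate 1 and between 51.8 and 75.0% in the others.

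In the AP-2 family the leading gene was not the same in all libraries. Tfap2d led in replicate 1 at 74.9 CPM per kb, whereas Tfap2b led in replicates 2, 3 and 4. Tfap2b differed little between libraries, at 4.18 CPM per kb in replicate 1, against 4.07, 5.99 and 4.34 CPM per kb. Tfap2a was low throughout, at 0.212 CPM per kb in replicate 1 and between 0.130 and 0.792 in the others, and Tfap2c and Tfap2e had no count in any library.

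Pou4f2 and Barhl1 were also highest in replicate 1. Pou4f2, the Brn3b gene of retinal ganglion cells and tectal neurons, stood at 45.6 CPM in replicate 1, against 3.10, 0.0958 and 0 CPM in replicates 2 to 4. Per kb, it exceeded Pou4f1 in replicate 1, at 14.2 against 4.14 CPM per kb. Its log2 fold change was 5.24 ± 1.34 (SE), but it did not pass the threshold (edgeR, adjusted p = 0.99965). It was called without replicate 2, without replicate 3 and with no filter on low counts. Barhl1 stood at 26.1 CPM in replicate 1, against 3.88, 3.55 and 0 CPM, a log2 fold change of 3.22 ± 1.31 (SE; edgeR, adjusted p = 0.99965), while Barhl2 was the higher of the pair per kb in all 4 libraries. Pou4f3 was under 1 CPM in every library.

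Beside Mef2c, Nrgn and Syndig1l, the most abundant relatives differed less between libraries than the member did. Mef2c took 21.6% of the summed MEF2 level per kb in replicate 1, against 2.77, 4.03 and 3.73% in replicates 2 to 4. Mef2d was the highest MEF2 gene in all of them, at 37.0 CPM per kb in replicate 1, against 45.2, 47.1 and 53.4 CPM per kb, and Mef2a stood at 14.1, against 7.30, 8.42 and 7.41 CPM per kb. Mef2b had no count. Nrgn stood at 193 CPM per kb in replicate 1 and at 19.6, 5.41 and 32.3 CPM per kb in the others, below both Gap43 and Pcp4l1, other small calmodulin-binding protein genes, in each. Gap43 was at 332 CPM per kb in replicate 1, against 307, 176 and 225, and Pcp4l1 at 271, against 181, 169 and 168 CPM per kb. Syndig1l stood at 25.6 CPM per kb in replicate 1, close to Prrt1 at 29.4, whereas in replicates 2 to 4 Syndig1l was at 2.93, 4.36 and 3.13 and Prrt1 at 20.7, 22.7 and 53.6 CPM per kb. Coch exceeded Vit in every library, 15.4 against 0.161 CPM per kb in replicate 1. Otx2 exceeded Otx1 and Crx in every library, and Crx had no count. None of the 16 relatives that entered the test passed its threshold in the comparison of replicate 1.

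**Figure D3:**
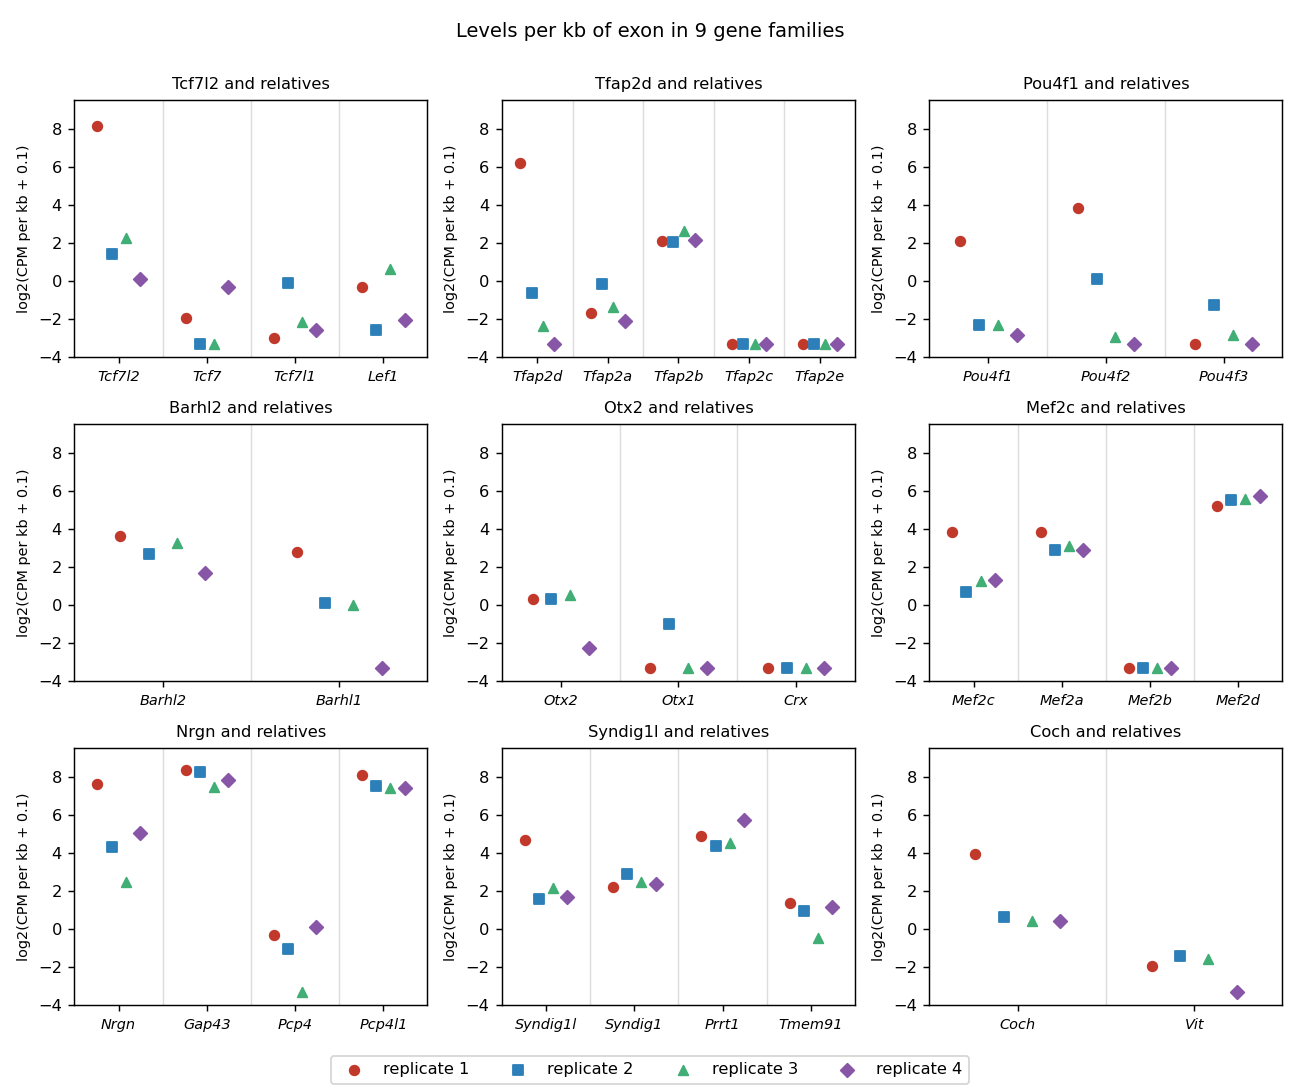
Panels show log2(CPM per kb of union exon + 0.1) for 9 of the genes, each beside its relatives, with 1 point a library. Tcf7l2, Tfap2d, Pou4f1, Mef2c, Nrgn, Syndig1l and Coch stand apart in replicate 1 from their own levels in the other libraries, and Pou4f2 and Barhl1 are also highest in replicate 1, at 14.2 and 6.68 CPM per kb.

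A further 17 lists of regional and cell type genes, none holding a member, were read in the same libraries. Of 129 list genes tested, 0 were called in the comparison of replicate 1 by edgeR and 0 by DESeq2, and at an unadjusted p under 0.05 there were 7 higher and 14 lower, 16.3% of the list genes against 3.30% of all genes. Because the lists were chosen with earlier results of these data known, these shares are a description. Over all tested genes the median log2 fold change of replicate 1 was -0.10. Over the 10 members, most of them chosen for a high replicate 1, it was 3.23. The sum of the other midbrain tectum genes was 564 CPM in replicate 1, against 541, 368 and 628 CPM in replicates 2 to 4, and the median log2 fold change of the 12 tested was -0.19. Ebf3, the most abundant of them, decided where that sum lay, at 275 CPM in replicate 1, against 385, 268 and 514 CPM. The other 13 genes summed to 289 CPM in replicate 1, against 155, 100.04 and 114 CPM, so that their sum was highest in replicate 1. Only 4 of the 14 genes of the list were themselves highest there, En1, Pou4f2, Barhl1 and Cbln2. Within the list, En1, a homeodomain gene of the midbrain and hindbrain, stood at 29.6 CPM in replicate 1, against 8.54, 4.12 and 6.19 CPM, and Cbln2 at 118 CPM, against 49.97, 9.58 and 27.4 CPM. Both were higher at an unadjusted p under 0.05, and neither passed the adjusted threshold. Tfap2b, also in that list, was not highest in replicate 1, and Pax7 was at 0 CPM there.

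Genes of thalamus, cortex and striatum, the regions from which Tcf7l2, Nrgn, Mef2c and Syndig1l are known, were partly present and partly without a count. Of these lists, 6 of 11 thalamic, 10 of 14 cortical and hippocampal and 9 of 13 striatal genes reached 1 CPM in every library. Gbx2, a thalamic homeobox gene, and Emx1 and Emx2, which mark the dorsal telencephalon, had no count in any library, and neither did the striatal receptor gene Adora2a. The summed thalamic list was 726 CPM in replicate 1, against 548, 758 and 649 CPM, and Rora and Ntng1 made up most of it. Without Rora and Ntng1, the sum was 112 CPM in replicate 1, against 43.6, 114 and 89.1 CPM. Tnnt1 alone of the thalamic genes met the 4-fold criterion, at 14.3 CPM in replicate 1, against 0.291, 1.15 and 0.182 CPM. Cortical and hippocampal genes summed to 1681 CPM in replicate 1, against 1114, 993 and 1268 CPM, and 4 of the 14 genes were highest there. Camk2a gave 688 CPM of that sum in replicate 1, against 229, 103 and 534 CPM. Without Camk2a the sum was 993 CPM in replicate 1, against 885, 889 and 734 CPM. Without Nrn1 as well it was 612 CPM, against 539, 450 and 604 CPM. Bcl11b stood at 71.2 CPM in replicate 1, against 28.7, 11.8 and 19.7 CPM, and Neurod6 at 6.76 CPM, against 24.6, 16.9 and 46.0 CPM, and neither passed the adjusted threshold. Striatal genes summed to 778 CPM in replicate 1, against 643, 619 and 870 CPM. Without Penk, their most abundant gene, the sum was 518 CPM in replicate 1, against 350.2, 303 and 294 CPM, and 7 of the 13 genes were highest in replicate 1. Tac1, the substance P precursor gene, met the 4-fold criterion at 76.1 CPM, against 15.4, 5.17 and 0.364 CPM. Habenular genes, among which Pou4f1 is a known marker, summed to less in replicate 1, at 171 CPM, against 290, 260 and 292 CPM, and Lmo3 and Nr4a2 made up most of it. Without these 2, the sum was 41.9 CPM in replicate 1, inside the range of 67.4, 26.0 and 34.2 CPM in replicates 2 to 4. Of the 9 habenular genes, 3 were highest and 4 lowest in replicate 1. Chat and Slc18a3 had no count in replicate 1, and Slc5a7 stood at 2.18 CPM there, against 35.8, 3.83 and 17.7 CPM. The nicotinic receptor gene Chrna3 was highest in replicate 1, at 25.5 CPM against 0.679, 14.2 and 8.65 CPM. Chrnb4, another such receptor gene, was also highest there, at 12.6 CPM against 3.10, 5.17 and 2.82 CPM. So was Gpr151, which had few counts, 12 in replicate 1, against 0, 6 and 0. The midbrain GABAergic list summed to 4.68 CPM and the ventral midbrain list to 11.95 CPM in replicate 1, against ranges from 2.04 to 17.4 and from 5.28 to 10.8 CPM, and Helt, Foxa2 and Isl1, of these lists, had no count. How far such cells bear on the levels of the members was not tested.

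Lists of other cerebellar cells and of glia were not highest in replicate 1, and several had their lowest sum there. Granule cell genes summed to 979 CPM in replicate 1, against 1446, 2379 and 1185 CPM, and 7 of 10 were lowest there. Oligodendrocyte genes summed to 493 CPM, against 760, 1209 and 1036 CPM, with 7 of 8 lowest in replicate 1. Astrocyte genes summed to 377 CPM in replicate 1, against 504 to 830 CPM in the rest, and Purkinje cell genes to 1626 CPM, within the range from 1423 to 3799 CPM of the others. GABA and glycine neuron genes summed to 116 CPM in replicate 1, within the range from 72.3 to 372 CPM of the others, and microglia genes to 3.85 CPM, against 5.05 to 11.5 CPM. Brainstem monoamine genes summed to 13.51 CPM, against 15.0 to 94.7 CPM. The hindbrain Hox list, at 6.76 CPM in replicate 1 and between 1.44 and 8.83 CPM elsewhere, and the vessel and choroid plexus list, at 100.2 CPM and between 38.4 and 219 CPM, lay inside the range of the other libraries. The most abundant gene decided the place of some of these sums as well. Without Slc1a2 the astrocyte sum lay inside the range of the other libraries, and without Ttr the vessel and choroid plexus sum was highest in replicate 1, at 55.3 CPM, against 28.9, 50.02 and 38.4 CPM. All list sums are CPM without TMM scaling of library sizes. The TMM factors were 1.11 in replicate 1 and 0.996, 0.981 and 0.921 in replicates 2 to 4. Scaling by them would lower replicate 1 relative to the rest, and the sums were not recomputed in that way. Places that rest on a narrow step could therefore change, as for Purkinje cell genes and for the sums without Slc1a2 or Ttr. The part of the differences between list sums in the members' levels was not tested.

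**Figure D4:**
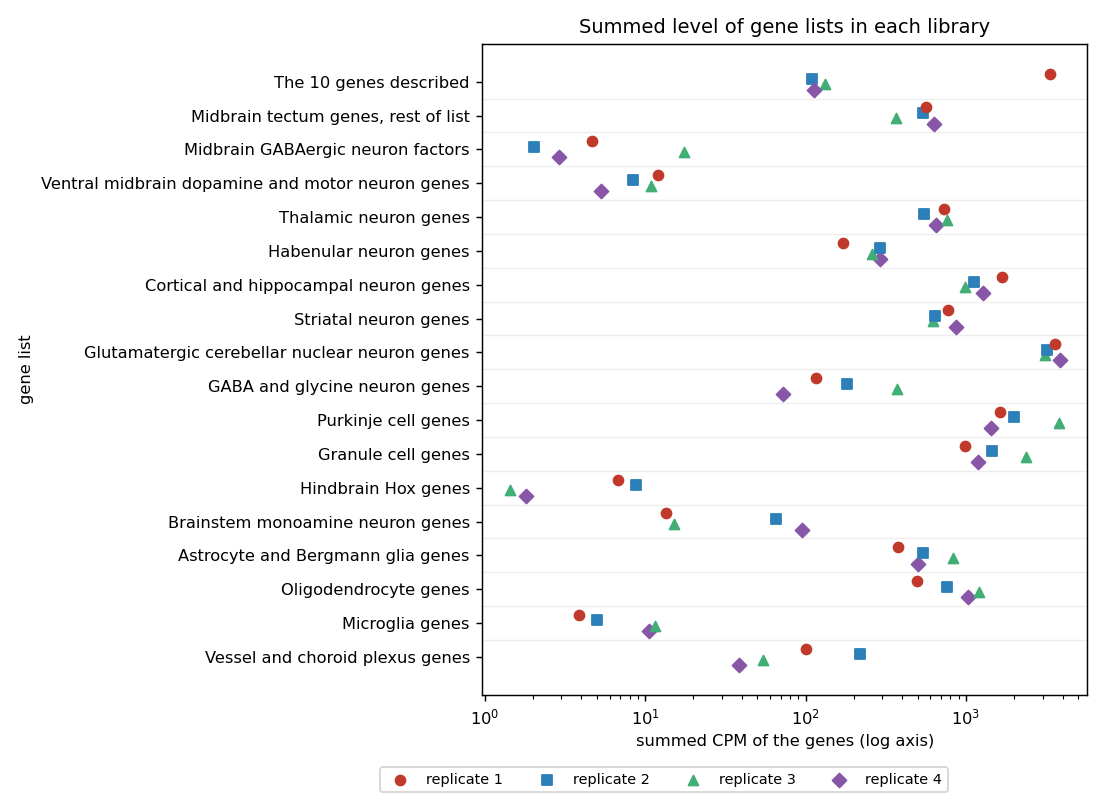
Each point is the summed CPM of a gene list in a library, on a log axis, with the sum of the 10 genes described in the top line. That sum is 3343 CPM in replicate 1, of which Tcf7l2 gives 2486 CPM, and lies between 109 and 132 CPM in the others. The 17 lists show no gap of that size between replicate 1 and the rest. Most of the 10 genes were chosen for a high replicate 1, so their larger gap is a description.

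To find genes that behaved most like the members, each gene's log2(CPM + 0.5) profile over the 4 libraries was centred and set against the median profile of the 10 members, by root mean square distance. Coch lay nearest to that median at a distance of 0.21, then Pou4f1 at 0.38 and Syndig1l at 0.39, whereas Tfap2d at 1.75, Tcf7l2 at 1.54 and Otx2 at 1.52 lay farthest from it. Among 8838 other genes with a mean of at least 10 CPM, for which the median distance was 1.56, the 10 nearest were Slco1a4, Surf6, 2010300C02Rik, Rpl22l1, Rps27a, Kcnj2, Ephx4, Nek7, BC023483 and Alg5, at distances from 0.57 to 0.70. Slco1a4 stood at 43.0 CPM in replicate 1, against 4.27, 5.85 and 7.74 CPM in replicates 2 to 4, and Nek7 at 260 CPM, against 67.9, 45.4 and 55.0 CPM. These genes were chosen for their profiles, and 8 of the 10 stayed the nearest with a pseudocount of 2.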

How the data were processed

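Raw counts per gene name were deposited by the authors, 1 file a library. The submitters' processing notes name STAR 2.0.0e, HTSeq and the build mm10. Which annotation was counted was not given in the sources used here, nor was strandedness. The 5 summary rows of the counting program and an empty row named unknown were left out of library sizes, which left 32531 gene names. Reads with no feature, ambiguous reads and reads that were not unique made up 14.1, 2.94 and 14.2% of replicate 1.

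CPM was computed over all named genes, including Rn45s, the ribosomal RNA precursor, which held 4.99% of counts in replicate 1 and 14.2, 13.6 and 4.92% in replicates 2 to 4. Per-kb levels used union exons of GENCODE M21, which gave a length to 73.6% of names and to all members. For each library in turn, the contrast with the remaining 3 was fitted in edgeR 4.0.16 under R 4.3.3. The fit used TMM, filterByExpr on the contrast, and robust glmQLFit and glmQLFTest, with 2 residual degrees of freedom. It was tried on simulated counts with the same dispersion for all genes and with changes in well-counted genes only. That trial does not cover genes with few counts. DESeq2 1.42.0 was an alternative. Pooled ratios have exact Clopper-Pearson intervals at 95%. P-values set each library against the spread among the remaining 3, which may be technical. The single library has no replicate, so its own spread was not measured.

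The members and lists were chosen with earlier results of these data known. Named are the members, their relatives, the leading genes of the lists by level and by change in replicate 1, and the 10 genes of nearest profile, and not all of these are printed. En1, Cbln2, Chrna3, Chrnb4, Gpr151, Tnnt1, Bcl11b, Neurod6, Tac1, Chat, Slc18a3, Slc5a7, Pax7 and the list genes without a count were named after their values were seen. Some list genes are not reported here.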

Additional observations from a re-analysis of the deposited data

Results flagged for a closer look

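By Dixon's ratio, the gap between the most distant library and its neighbour over the whole range, 8 of the 10 members stood out by exceeding the critical value for 4 samples, all through a high replicate 1. The ratios were 0.987 for Tcf7l2, 0.993 for Tfap2d, 0.984 for Pou4f1, 0.931 for Mef2c, 0.857 for Nrgn, 0.937 for Syndig1l, 0.985 for Coch and 0.997 for Ankrd63. Chance gives about 1 in 20 such results (5%), and these genes were chosen for this pattern, so the ratios are a description. Over all 15083 tested genes 11.6% passed, and 2.83% with replicate 1 as the high library.

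Of 17 relatives with at least 10 counts in all, 7 passed. Replicate 1 was the high library for Pou4f2 (0.932), Barhl1 (0.851), Mef2a (0.836) and Pcp4l1 (0.874). Replicate 2 was high for Tcf7l1 (0.883) and for Otx1 (1.0), which had no count in the other libraries. Replicate 3 was high for Tfap2b (0.862).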

How the results depend on the processing

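No paired analysis was possible because the 4 libraries form 1 group. The count of genes that set replicate 1 apart depended on the test and the filter. Higher genes numbered 3 in the main analysis, 12 with DESeq2 (7 of them members, without Tfap2d), 27 with no filter on low counts, 1 with at least 10 counts in every library (an alternative chosen after seeing the data) and from 7 to 21 when replicate 2, 3 or 4 was left out. Lower genes numbered 0, 14 with DESeq2, 5 with no filter and from 0 to 10 with a library left out. With DESeq2 size factors within edgeR, or without Rn45s, 3 were higher. Calls among the list genes numbered 0, with 2 higher under no filter (Pou4f2 and Tac1), from 0 to 1 higher (Pou4f2, without replicate 2 or 3) and from 0 to 1 lower (Cbln1, without replicate 4) with a library left out. The cause was not tested. The count of 9 members highest in replicate 1 held with totals without Rn45s and with TMM library sizes. Without replicate 4, the genes at an unadjusted p under 0.05 numbered 1098 in place of 497. Of 70 recomputed member ratios, 10 moved by at least 1 SD, and 1 changed sign, that of Otx2 without replicate 4 (-0.08). Sums of lists without their 1 or 2 most abundant genes were added after seeing the data. Replicate 1 cannot be left out of its own comparison.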

Other observations

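Besides the members, 46 genes met the criterion of 10 CPM in replicate 1 and a 4-fold step over each other library, and the following were picked from them after their values were seen. Sprr1a had 169 counts in replicate 1, against 2, 0 and 0 in replicates 2 to 4, and Defb1 had 116 counts, against 2, 1 and 0. Shox2, a homeobox gene, stood at 84.3 CPM in replicate 1, 8.60 times the next library, and Sema5b, a semaphorin gene, at 71.5 CPM, 5.76 times. Fam163b, at 471 CPM in replicate 1, was the most abundant of the 46 and lay 4.02 times above the next library. None of these passed the adjusted threshold in edgeR's test of replicate 1.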
